A study of Gallus gallus with 6 samples.

Results

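Transcription factors of 4 DNA-binding families, the homeobox, T-box, SRY-box (SOX) and forkhead genes, were followed through 6 libraries of chicken feather follicle RNA. Members were found by the words homeobox, homeo box, T-box, SRY (sex determining region Y)-box and forkhead box in the description of each RefSeq transcript record. The words matched 73 records, of which 2 were left out (a zinc finger homeobox gene of the E-box binding kind and 1 SRY-box symbol). Of the 71 kept, 45 reached 10 or more counts in some library and are the members described here, out of 10964 records in all. They comprised 31 homeobox, 2 T-box, 5 SRY-box and 7 forkhead records. The other 26 had at most 9 counts in any library.

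Total RNA was sequenced from 3 parts of the growing follicle, which were the dermal papilla (the signalling mesenchyme at the base of the follicle), the mesenchymal pulp that fills the feather shaft above it, and the feather epithelium. A further library came from the dermal papilla at rest, and 2 came from feather follicles taken 2 and 4 days after wounding. Each of the 6 groups was 1 library, so no difference below has a replicate check and none carries a p-value. The labels give no breed, age, sex, number of birds or body region, so region and tissue cannot be told apart.

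Homeobox proteins bind DNA through a homeodomain, and many act as switches of regional and cell identity in the embryo. The HOX genes lie in clusters, and their order along the chromosome follows their order of use along the body axis and the limb. MSX and DLX factors act downstream of BMP signals in skin appendages and limbs, T-box factors help to set limb and skin fields, SOX factors bind through an HMG domain and include regulators of follicle stem cells and blood vessels, and forkhead factors link growth factor, cell cycle and metabolic signals to transcription. Homeodomain and T-box proteins recruit corepressors such as the TLE (Groucho) family.

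Library totals ran from 3269376 to 6064791, with the epithelium and pulp deeper than the other 4 and deposited in tables of a different text layout. Any ratio of the epithelium or pulp to those 4 libraries also crosses the sets of tables. In such a ratio, tissue and set of tables cannot be told apart. Levels are given as scaled CPM, which is CPM (counts relative to the library total) after edgeR's TMM (trimmed mean of M values) composition scaling. They were not divided by transcript length and are compared between libraries only, not between genes. The tables list no count under 2, so an unlisted member is taken as 0 and its fold is a bound at 3 counts, a level of 0.516 scaled CPM in the pulp and of up to 0.883 in the growth papilla. Folds are ratios of scaled counts with exact 95% conditional binomial intervals, which cover counting error only. A bound has no interval and leaves out the counting error of the library that lists the record, so it is not a 95% limit. Marker lists were checked against the labels. The mesenchyme list (7 of 8 genes matched, TWIST1 not matched) summed to 4899 scaled CPM in the papilla, 3863 in the pulp and 97.3 in the epithelium, where COL1A1 and TWIST2 were unlisted. The epithelium list (7 of 8 matched) summed to 686, 98.2 and 1587, in the same order. KRT14 made up 616 of the 686 in the growth papilla and was higher there than in the epithelium (479). The other 6 matched genes were lower in the growth papilla than in the epithelium, EPCAM at 15.9 against 534, CLDN1 at 19.4 against 332 and CDH1 at 24.4 against 210.3 scaled CPM. In the resting papilla, day 2 and day 4 libraries the epithelium list summed to 768, 1284 and 882. KRT14 made up 449.5, 1051 and 623 of these sums. EPCAM had 112.1 scaled CPM in the resting papilla and 57.2 at day 2, and CDH1 68.4 and 38.1. Of 7 counted genes, 1 was called higher and 0 lower at day 2 than in the resting papilla (all records 7.03% and 6.00%). The melanocyte list summed to 761 scaled CPM in the epithelium and reached at most 21.5 elsewhere. Its gene DCT was unlisted in the epithelium and had 4 counts in the resting papilla and 5 at day 2. MITF was listed in all 6 libraries, with 12 to 54 counts.

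Of the 45 members, 27 were listed in all 6 libraries and 37 reached 20 counts in some library. Over all records with 10 or more counts in some library, 7205 of 8220 reached 20. With no minimum count, 7058 of the 10964 records were listed in all 6 libraries. Per library, 41 members were listed in the growth papilla, 43 in the pulp, 32 in the epithelium, 41 in the resting papilla, 43 at day 2 and 38 at day 4. Of the 10964 records, 8835, 9252, 8398, 8956, 9072 and 9019 were listed in the same order of libraries. The epithelium listed the fewest there too. As over all records, a larger share of members was called between growing tissues than between stages. A member was counted in a comparison if it had 20 or more counts in either library, and called at 2-fold on log2(scaled CPM + 1). A member near 20 counts enters through the library in which it is high, so these counts describe the members and are not evidence of a direction. Between growth papilla and epithelium, 10 of 26 counted members were higher and 7 lower in the papilla (background over all records 25.0% and 22.7%). Against the pulp, 5 of 30 were higher and 12 lower in the growth papilla (background 14.7% and 19.1%). In the pulp against the epithelium, 15 of 32 were higher and 7 lower (background 26.7% and 20.4%). The median log2 ratio of the counted members was 0.24, -0.45 and 0.91 in these comparisons, against -0.05, -0.09 and 0.08 over all records.

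Fewer members differed between stages. The day 2 and day 4 libraries are follicles and the resting one is a papilla, so stage and tissue part cannot be told apart in ratios between them. In the growth papilla against the resting papilla, 4 of 23 were higher and 3 lower (background 9.35% and 7.97%). At day 2 against the resting papilla, 5 of 26 were higher and 2 lower (background 7.03% and 6.00%). At day 4 against the resting papilla, 3 of 25 were higher and 0 lower (background 8.23% and 6.90%). At day 4 against day 2, 1 of 26 was higher and 4 lower (background 3.77% and 3.84%, or 7.61% in either direction). Comparisons that share a library, such as both days against the resting papilla, are not independent of each other.

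**Figure D1:**
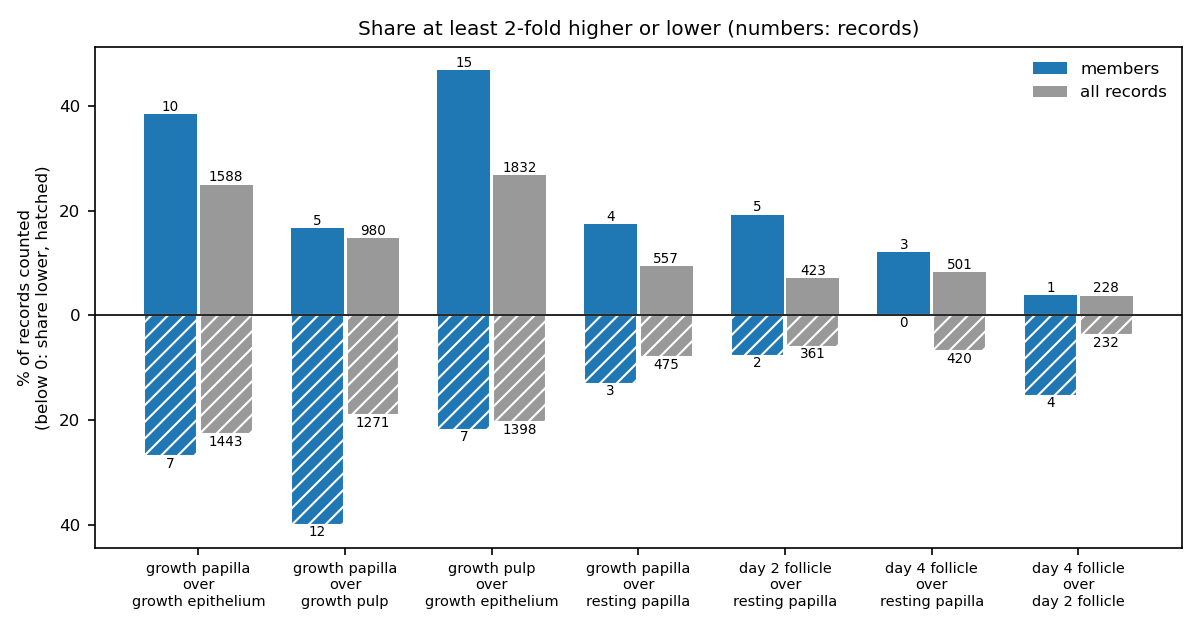
Percentage of counted records at least 2-fold higher (above 0) or lower (below 0, hatched) in the first library named, for the members (blue) and all records (grey), with the number of records on each bar. The blue bars are tallest in the pulp over epithelium comparison, where 15 of 32 members were higher, and the lower share of the growth papilla against the pulp (12 of 30) is the longest below 0.

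**Figure D2:**
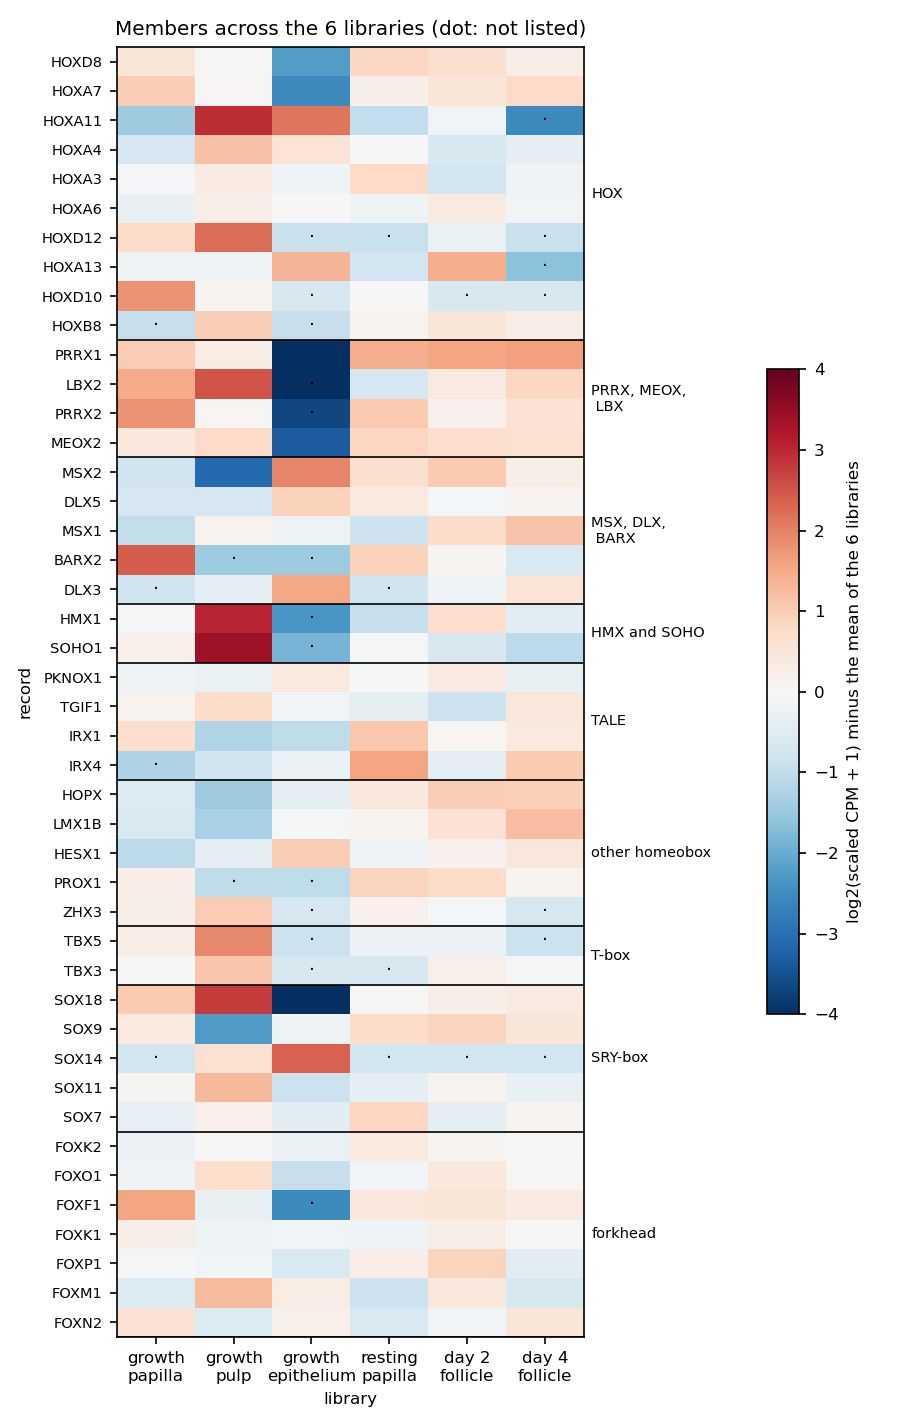
Level of the members reported here in the 6 libraries as log2(scaled CPM + 1) minus the mean of each row, with red above and blue below the row mean and a dot where a record was not listed; rows are grouped by class. The epithelium column is blue for PRRX1, PRRX2, MEOX2, LBX2 and SOX18, and the pulp column is red for HMX1, SOHO1, HOXA11 and SOX18.

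Among the 10 HOX members, 6 belong to the HOXA cluster, 3 to HOXD and 1 to HOXB. HOXD8 had 61.5 scaled CPM in the growth papilla, 44.5 in the pulp, 8.39 in the epithelium, 78.6 in the resting papilla, 67.8 at day 2 and 52 at day 4 (counts in that order: 209, 259, 35, 286, 249 and 205). HOXA7 stood at 49.4 scaled CPM (growth papilla), 25.3 (pulp), 3.36 (epithelium), 28.9 (resting papilla), 34.8 (day 2) and 42.6 (day 4), from counts of 168, 147, 14, 105, 128 and 168. Both of these genes from the middle of their clusters were low in the epithelium alone, and their other 5 libraries lay within 2-fold of each other. Relative to the epithelium, the growth papilla had HOXD8 7.33-fold higher (5.11 to 10.8) and HOXA7 14.7-fold higher (8.54 to 27.5), and in the pulp they were 5.31-fold higher (3.72 to 7.79) and 7.53-fold higher (4.35 to 14.1). HOXA3, HOXA4 and HOXA6, which lie on the anterior side of HOXA7, were listed in all 6 libraries, the epithelium included. HOXA3 had 12.1 scaled CPM in the growth papilla, 15.7 in the pulp, 10.8 in the epithelium, 22.3 in the resting papilla, 6.8 at day 2 and 11.2 at day 4 (counts in that order: 41, 91, 45, 81, 25 and 44). HOXA4 stood at 9.12 scaled CPM (growth papilla), 35.1 (pulp), 22.8 (epithelium), 15.1 (resting papilla), 9.25 (day 2) and 11.2 (day 4), from counts of 31, 204, 95, 55, 34 and 44. HOXA4 (HOX1.4 in the tables) was highest in the pulp, followed by the epithelium. In the growth papilla it was 3.85-fold lower (2.63 to 5.81) than in the pulp and 2.5-fold lower (1.65 to 3.88) than in the epithelium. Pulp and epithelium are the tables of different layout, so tissue and set of tables cannot be told apart for HOXA4. HOXA3 was highest in the resting papilla, and at day 2 it was 3.27-fold lower (2.07 to 5.35). HOXA6 ranged only from 7.36 scaled CPM in the growth papilla to 12.2 at day 2, and none of its ratios in the 7 comparisons reached 2-fold.

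The posterior members, which in limbs pattern the distal segments, behaved otherwise. HOXA11 had 1.18 scaled CPM in the growth papilla, 44.2 in the pulp, 24.7 in the epithelium, 1.92 in the resting papilla, 4.36 at day 2 and not listed at day 4 (counts in that order: 4, 257, 103, 7, 16 and none listed). HOXA11 was thus high in pulp and epithelium and low in every other library. In the growth papilla it was 37.6-fold lower (14.5 to 139) than in the pulp and 21-fold lower (7.95 to 78.5) than in the epithelium. It was the only member at least 4-fold above each of the other 4 libraries in both of the deeper tables (29 of 7205 records, or 0.402%, were). For this gene, too, the tissues and the set of tables cannot be told apart. HOXA13 stood at 1.76 scaled CPM (growth papilla), 1.72 (pulp), 6.95 (epithelium), 0.824 (resting papilla), 7.62 (day 2) and not listed (day 4), from counts of 6, 10, 29, 3, 28 and none listed. Its neighbour HOXA13 therefore had its highest levels at day 2 and in the epithelium, and it was unlisted at day 4. HOXD12 had 45 counts in the pulp, 7 in the growth papilla, 2 at day 2 and none listed in the other 3 libraries. HOXD10 had 15 counts in the growth papilla, 4 in the pulp, 2 in the resting papilla and none listed elsewhere. HOXB8, which like HOXD8 is not one of these posterior members, had 16 counts in the pulp and 4 to 6 in the resting, day 2 and day 4 libraries. It had none listed in the growth papilla or epithelium.

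**Figure D3:**
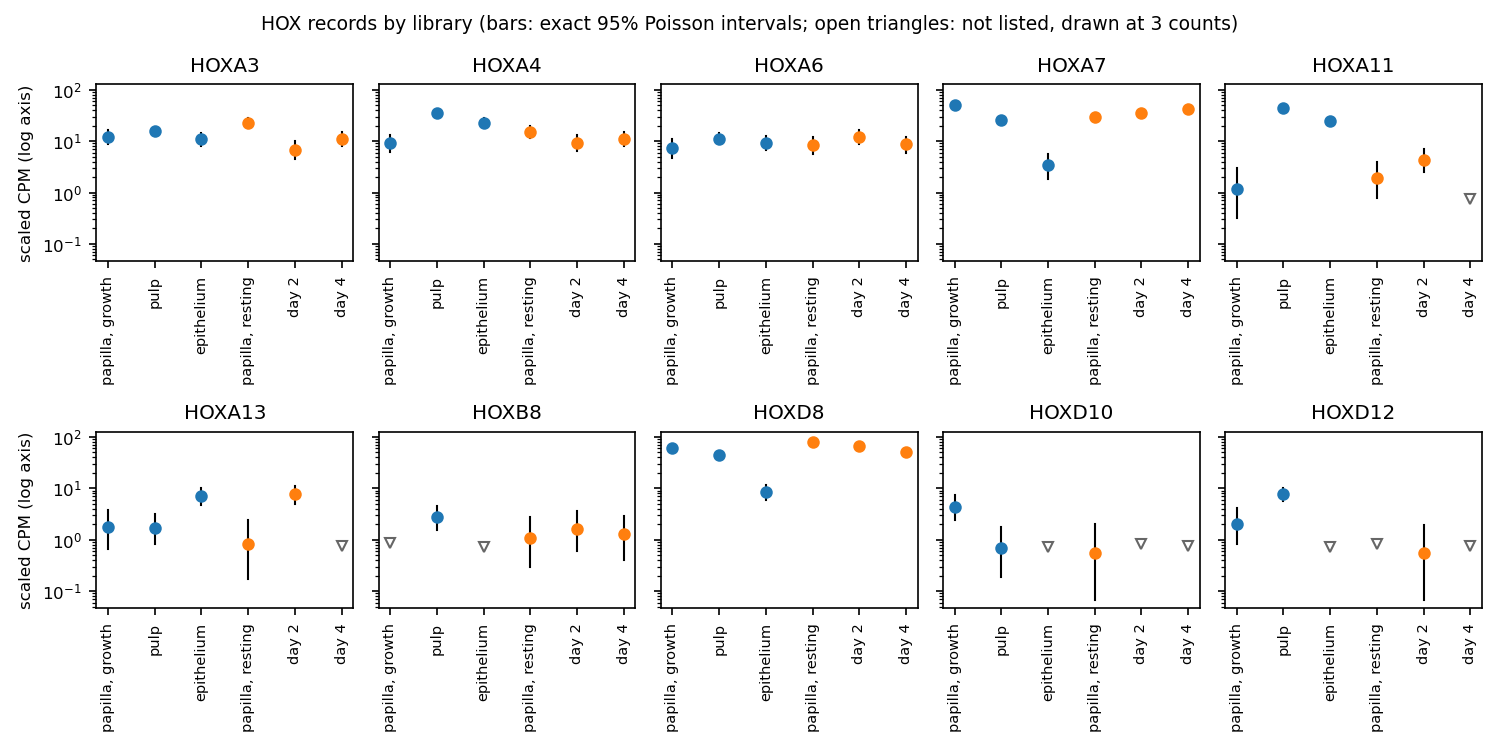
Scaled CPM (log axis) of the 10 HOX members in each library, with growth-phase libraries in blue and the resting, day 2 and day 4 libraries in orange; bars are exact 95% Poisson intervals and open triangles mark unlisted records at 3 counts. HOXA7 and HOXD8 are lowest in the epithelium, whereas HOXA11 reaches 44.2 in the pulp and 24.7 in the epithelium and is at or below 4.36 elsewhere.

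PRRX1 and PRRX2, paired-related factors of limb and skin mesenchyme, and MEOX2, a factor of mesoderm and vessels, marked every library but the epithelium. PRRX1 had 188 scaled CPM in the growth papilla, 112 in the pulp, 0.479 in the epithelium, 251 in the resting papilla, 277 at day 2 and 289.7 at day 4 (counts in that order: 640, 652, 2, 913, 1019 and 1141). PRRX2 stood at 42.1 scaled CPM (growth papilla), 12 (pulp), not listed (epithelium), 25 (resting papilla), 13.1 (day 2) and 17.8 (day 4), from counts of 143, 70, none listed, 91, 48 and 70. MEOX2 had 18.8 scaled CPM in the growth papilla, 24.2 in the pulp, 0.479 in the epithelium, 25.8 in the resting papilla, 22.6 at day 2 and 21.3 at day 4 (counts in that order: 64, 141, 2, 94, 83 and 84). All 3 were near or at 0 in the epithelium, and PRRX1 and MEOX2 were called in no comparison without it. In the growth papilla PRRX1 was 393-fold higher (lower limit 108, from 2 counts in the epithelium), PRRX2 at least 58.5-fold higher and MEOX2 39.3-fold higher (10.4 to 331) than in the epithelium. The mesenchyme markers, given above, were low in the same library, and bulk RNA cannot tell fewer cells of a type from less RNA per cell. PRRX2 differed from PRRX1 in being highest in the growth papilla, where it was 3.5-fold higher (2.61 to 4.72) than in the pulp, against a ratio for PRRX1 of 1.68-fold higher (1.5 to 1.88). At day 2 PRRX2 was 1.91-fold lower (1.33 to 2.77) than in the resting papilla, below the 2-fold rule, while PRRX1 was 1.11-fold higher (1.01 to 1.21).

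The ladybird record, named LBX1 in the tables but assigned by accession to LBX2 in the gene table, is called LBX2 here although its identity as LBX1 or LBX2 is uncertain. It was unlisted in the epithelium and differed between stages. LBX2 had 62.7 scaled CPM in the growth papilla, 128 in the pulp, not listed in the epithelium, 12.9 in the resting papilla, 28.3 at day 2 and 39.6 at day 4 (counts in that order: 213, 745, none listed, 47, 104 and 156). It was highest in the pulp, and lowest, of the 5 libraries that listed it, in the resting papilla. The growth papilla was 4.85-fold higher (3.52 to 6.81) than the resting papilla, the largest such ratio among the 4 members called higher there. At day 2 and day 4 it was 2.19-fold higher (1.54 to 3.16) and 3.07-fold higher (2.2 to 4.34) than in the resting papilla, the only member called higher on both days besides MSX1.

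MSX2, DLX5 and DLX3 had their highest level in the epithelium. MSX2 and DLX3 are known in mouse hair for roles in shaft differentiation. MSX2 had 8.24 scaled CPM in the growth papilla, 0.86 in the pulp, 60.6 in the epithelium, 23.6 in the resting papilla, 31.8 at day 2 and 17.8 at day 4 (counts in that order: 28, 5, 253, 86, 117 and 70). DLX5 stood at 9.71 scaled CPM (growth papilla), 9.63 (pulp), 31.4 (epithelium), 21.2 (resting papilla), 15.5 (day 2) and 17.3 (day 4), from counts of 33, 56, 131, 77, 57 and 68. MSX2 was lowest in the pulp and intermediate in the papillae and regenerating follicles, and DLX5 was lowest in the growth papilla and pulp. In the pulp MSX2 was 70.5-fold lower (29.8 to 219) and DLX5 3.26-fold lower (2.37 to 4.54) than in the epithelium. The growth papilla had less of both than the resting papilla, with MSX2 2.87-fold lower (1.85 to 4.57) and DLX5 2.18-fold lower (1.43 to 3.38). The epithelium list summed to 686 scaled CPM in the growth papilla (616 of it KRT14), 98.2 in the pulp, 1587 in the epithelium and 768 in the resting papilla. Of its 6 counted genes, 4 were called lower and 0 higher in the growth than in the resting papilla (all records 7.97% and 9.35%). The part of the epithelium list in these results was not tested. DLX3 had 17 counts in the epithelium, 6 at day 4, 2 each in the pulp and at day 2 and none listed in either papilla.

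MSX1, a BMP-responsive factor of limb and appendage buds, was ordered differently from MSX2. MSX1 had 2.35 scaled CPM in the growth papilla, 6.36 in the pulp, 4.79 in the epithelium, 2.75 in the resting papilla, 10.1 at day 2 and 13.7 at day 4 (counts in that order: 8, 37, 20, 10, 37 and 54). It was low in both papillae and highest in the regenerating follicles, where it was 3.67-fold higher (1.79 to 8.26) at day 2 and 4.99-fold higher (2.52 to 11) at day 4 than in the resting papilla. BARX2, a BarH-like factor, was found in the 4 libraries other than pulp and epithelium. BARX2 stood at 13.2 scaled CPM (growth papilla), not listed (pulp), not listed (epithelium), 4.12 (resting papilla), 1.91 (day 2) and 0.762 (day 4), from counts of 45, none listed, none listed, 15, 7 and 3. The libraries without it were the 2 tables of different layout, so tissue and set of tables cannot be told apart for this gene. It was highest in the growth papilla, where it was at least 25.7-fold higher than in the pulp, at least 18.4-fold higher than in the epithelium and 3.21-fold higher (1.76 to 6.2) than in the resting papilla. The smooth muscle list (6 of 7 genes matched, CNN1 not matched) had the same order at its top, with 77842 summed counts in the growth papilla, 25593 in the resting papilla and at most 8897 counts in each of the other 4 libraries; its part in the BARX2 result was not tested.

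The sensory organ factors HMX1 and SOHO1 were pulp genes among the growing tissues. HMX1 stood at 3.83 scaled CPM (growth papilla), 40.8 (pulp), not listed (epithelium), 1.65 (resting papilla), 7.08 (day 2) and 2.79 (day 4), from counts of 13, 237, none listed, 6, 26 and 11. SOHO1 had 3.24 scaled CPM in the growth papilla, 37.1 in the pulp, not listed in the epithelium, 2.47 in the resting papilla, 1.36 at day 2 and 0.762 at day 4 (counts in that order: 11, 216, none listed, 9, 5 and 3). Both had their maximum in the pulp and were unlisted in the epithelium. In the pulp HMX1 was at least 56.7-fold higher and SOHO1 at least 51.7-fold higher than in the epithelium, and in the growth papilla they were 10.7-fold lower (6.11 to 20.3) and 11.5-fold lower (6.29 to 23.3) than in the pulp. HMX1 and SOHO1 lie next to each other on chromosome 4, with 0 protein-coding genes between them in the GRCg7b gene table. HMX1 was 4.29-fold higher (1.73 to 12.8) in the day 2 follicle than in the resting papilla, a ratio in which stage and tissue part cannot be told apart. Day 4 was 2.53-fold lower (1.21 to 5.68) than day 2 for HMX1. SOHO1 had 9 counts in the resting papilla, 5 at day 2 and 3 at day 4, under the minimum of 20. Its ratio of day 2 to the resting papilla was 0.55 (0.145 to 1.83). With so few counts of SOHO1 and 1 library in each group, a difference within the pair is not settled. Beside the pulp maxima, the leukocyte list (5 of 7 genes matched) summed to 258 scaled CPM in the growth papilla, 1227 in the pulp and 19.7 in the epithelium. In the resting papilla, day 2 and day 4 libraries it summed to 247, 415 and 397. CD74 made up 849.9 of the 1227 in the pulp. C1QB, LCP1 and C1QA were also highest in the pulp, whereas PTPRC had 3 counts there and 5 at day 2. The part of the leukocyte list was not tested.

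**Figure D4:**
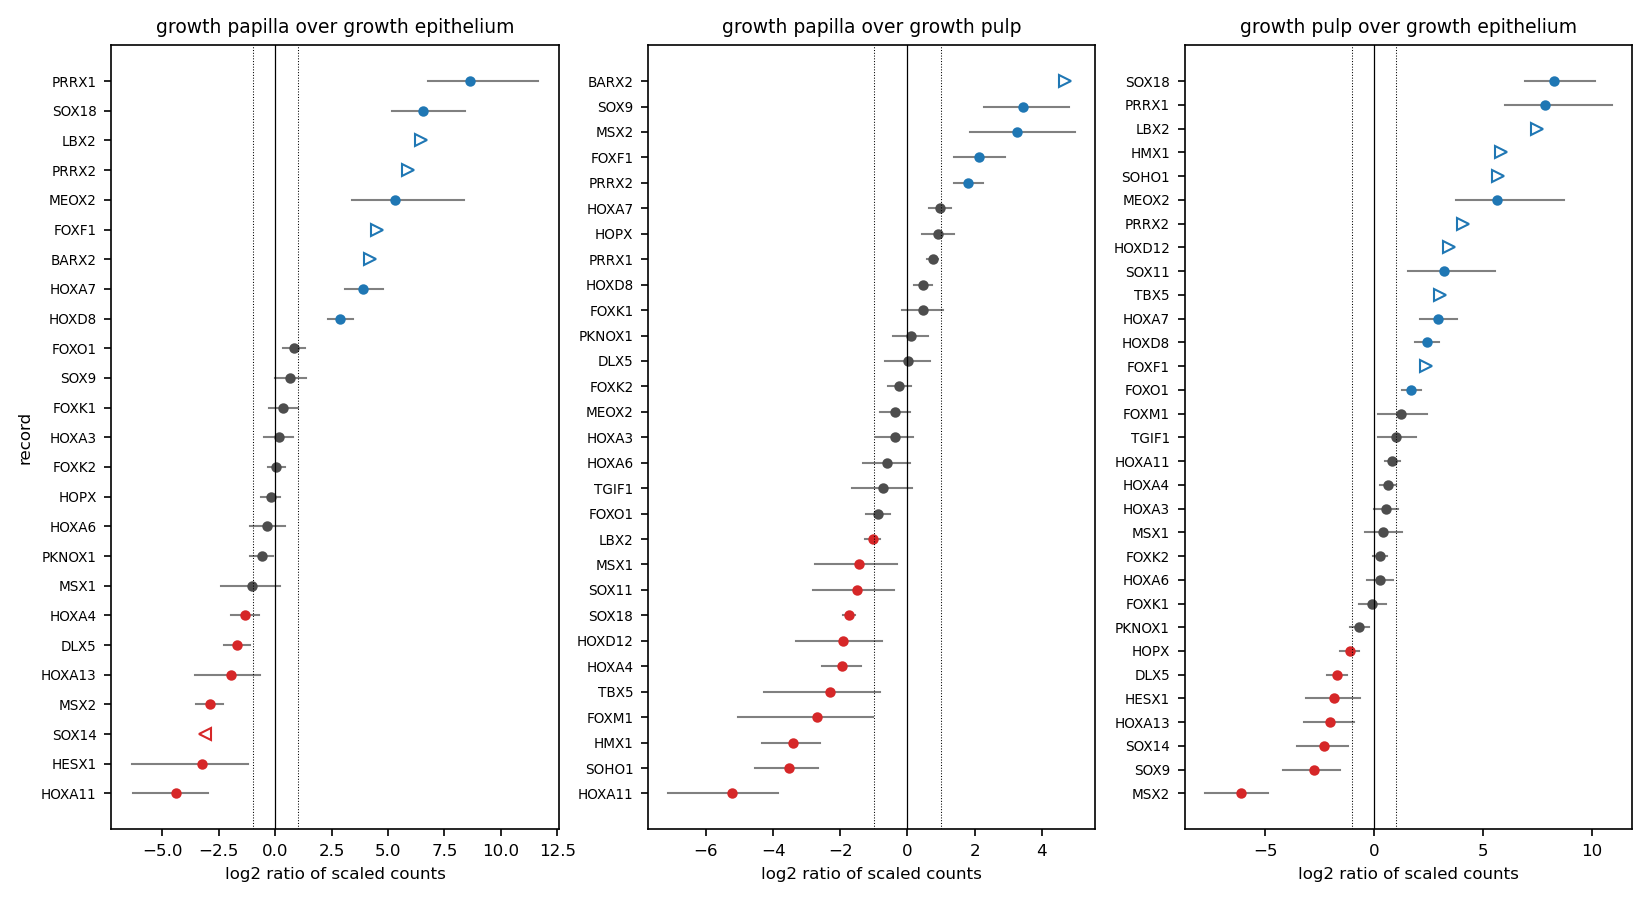
Log2 ratio of scaled counts for each counted and reported member in the 3 comparisons of growing tissues, with exact 95% intervals (grey lines), open triangles for bounds against an unlisted record, and dotted lines at 2-fold; blue members were called higher and red ones lower in the first library, on the scale with a pseudocount of 1. PRRX1, SOX18 and LBX2 head both comparisons with the epithelium, and HOXA11, SOHO1 and HMX1 lie at the bottom of growth papilla over pulp.

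The TALE members, which have an extended homeodomain loop and include partners of HOX proteins, comprised PKNOX1, TGIF1, IRX1 and IRX4. PKNOX1 had 15.6 scaled CPM in the growth papilla, 14.6 in the pulp, 23.5 in the epithelium, 17.3 in the resting papilla, 22.3 at day 2 and 14.2 at day 4 (counts in that order: 53, 85, 98, 63, 82 and 56). PKNOX1, a binding partner of PBX proteins, was called in none of the 7 comparisons. TGIF1, a repressor in TGF-beta signalling, had 45 counts in the pulp and 7 to 24 elsewhere, and day 4 was 3.2-fold higher (1.34 to 8.79) than day 2. The Iroquois genes IRX1 and IRX4, which lie on chromosome 2 with 1 protein-coding gene between them, were highest in the resting papilla. IRX4 had none listed in the growth papilla, 2 counts in the pulp, 4 in the epithelium, 22 in the resting papilla, 3 at day 2 and 15 at day 4. The growth papilla was thus at least 6.85-fold lower and day 2 7.4-fold lower (2.22 to 38.6) than the resting papilla. IRX1 had 16, 3, 3, 23, 10 and 14 counts in the same order of libraries, and no comparison of the stages called it. It was at least 2-fold lower in pulp and epithelium than in the other 4 libraries, as were 172 of 7205 records (2.39%), so here too tissue and set of tables cannot be told apart.

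HOPX, an atypical homeodomain protein that does not bind DNA (OB1 in the tables), had higher levels in the resting and regenerating libraries than in the growing tissues, and its only call was the pulp against the epithelium. HOPX had 24.1 scaled CPM in the growth papilla, 12.9 in the pulp, 27.8 in the epithelium, 48.1 in the resting papilla, 72.1 at day 2 and 70.3 at day 4 (counts in that order: 82, 75, 116, 175, 265 and 277). The regenerating follicles had the highest levels, 1.5-fold higher (1.24 to 1.83) at day 2 and 1.46-fold higher (1.21 to 1.78) at day 4 than in the resting papilla, below the 2-fold rule. LMX1B, the factor of dorsal limb identity, had 5, 3 and 11 counts in the growth papilla, pulp and epithelium, 11 in the resting papilla, 17 at day 2 and 31 at day 4, and was 2.6-fold higher (1.27 to 5.74) at day 4 than in the resting papilla. HESX1, known from the forebrain and pituitary, had 2 counts in the growth papilla, 9 in the pulp, 23 in the epithelium, 7 in the resting papilla, 10 at day 2 and 14 at day 4. PROX1, a factor of lymphatic endothelium, had 5 to 10 counts in both papillae and both regenerating follicles and none listed in pulp or epithelium, with the same limit. ZHX3 had 13 counts in the pulp and at most 3 elsewhere.

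Only TBX5 and TBX3 of the 6 T-box records reached 10 counts, and both did so in the pulp alone. TBX5 had 1.18 scaled CPM in the growth papilla, 5.85 in the pulp, not listed in the epithelium, 0.55 in the resting papilla, 0.544 at day 2 and not listed at day 4 (counts in that order: 4, 34, none listed, 2, 2 and none listed). TBX3 stood at 0.589 scaled CPM (growth papilla), 2.41 (pulp), not listed (epithelium), not listed (resting papilla), 0.817 (day 2) and 0.508 (day 4), from counts of 2, 14, none listed, none listed, 3 and 2. TBX5, which specifies the forelimb in embryos, was at least 8.13-fold higher in the pulp than in the epithelium, and in the growth papilla it was 4.97-fold lower (1.77 to 19.3) than in the pulp. The remaining libraries held 0 to 2 counts of TBX5 and 0 to 3 of TBX3, too few for a comparison. TBX5 and TBX3 are adjacent on chromosome 15 in the gene table. The 4 T-box records left below 10 counts (TBX1, TBX2, TBX15 and TBX22) had at most 3 counts in any library.

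SOX18, a regulator of vessel development that in mice is also expressed in the hair dermal papilla, had the widest range of the SRY-box members. SOX18 had 89.2 scaled CPM in the growth papilla, 299.8 in the pulp, 0.959 in the epithelium, 44 in the resting papilla, 50.4 at day 2 and 55.1 at day 4 (counts in that order: 303, 1743, 4, 160, 185 and 217). It was highest in the pulp and nearly absent from the epithelium. The pulp was 313-fold higher (122 to 1149) than the epithelium, and the growth papilla was 3.36-fold lower (2.98 to 3.81) than the pulp and 2.03-fold higher (1.67 to 2.47) than the resting papilla. The 8 endothelial markers were all listed outside the epithelium and summed to 299 scaled CPM in the growth papilla, 385 in the pulp, 17.7 in the epithelium, 243 in the resting papilla, 440.4 at day 2 and 375.5 at day 4. KDR, TEK, ESAM and EGFL7 were unlisted in the epithelium. The sum rested mostly on PECAM1 and VWF, with 735 and 466 of its 1618 counts at day 2. CDH5, TIE1, KDR, ESAM and TEK were, like SOX18, higher in the pulp than at day 2, with CDH5 at 93.2 scaled CPM in the pulp and 68.3 at day 2 and TIE1 at 40.6 and 12.3. PECAM1, VWF and EGFL7 went the other way, at 98.7, 75.7 and 2.24 scaled CPM in the pulp and 200, 126.8 and 2.45 at day 2. The part of endothelial cells in the SOX18 result was not tested. Per marker, 0 of 7 counted were called higher and 1 lower in the growth papilla than in the pulp (all records 14.7% and 19.1%).

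SOX9, a marker of follicle stem and outer sheath cells in mice, went the opposite way. SOX9 stood at 12.9 scaled CPM (growth papilla), 1.2 (pulp), 8.15 (epithelium), 16.5 (resting papilla), 18.8 (day 2) and 13.7 (day 4), from counts of 44, 7, 34, 60, 69 and 54. It was lowest in the pulp, with the other 5 libraries between 8.15 and 18.8. The growth papilla was 10.8-fold higher (4.8 to 28.3) than the pulp, while papilla and epithelium were within 2-fold of each other, the papilla being 1.59-fold higher (0.992 to 2.56). All 5 counted epithelium markers were likewise called higher in the growth papilla than in the pulp (all records 14.7%). Against the epithelium, unlike SOX9, 5 of 7 counted markers were called lower in the growth papilla and 0 higher (all records 22.7% and 25.0%). The other 2, KRT14 and TP63, were within 2-fold. TP63, a factor of basal epithelial cells, had 8.53 scaled CPM in the growth papilla, 1.2 in the pulp, 13.4 in the epithelium, 17.6 in the resting papilla, 15.8 at day 2 and 13.7 at day 4. Their part in the SOX9 result was not tested. SOX14 had 1.55 scaled CPM in the pulp and 7.67 in the epithelium, from 9 and 32 counts, and was unlisted in the growth papilla, the resting papilla and both regenerating libraries. SOX14, known from neurons, was therefore listed in the epithelium and pulp tables only, which are those of different layout (85 of 7205 records, or 1.18%, were at least 2-fold above the other 4 libraries in both), so tissue and set of tables cannot be told apart. The pulp was 4.96-fold lower (2.31 to 11.8) than the epithelium. SOX11 stood at 2.35 scaled CPM (growth papilla), 6.71 (pulp), 0.719 (epithelium), 1.37 (resting papilla), 2.45 (day 2) and 1.52 (day 4), from counts of 8, 39, 3, 5, 9 and 6. SOX11, a factor of progenitor cells, was highest in the pulp, where it was 9.33-fold higher (2.96 to 47.2) than in the epithelium. The record named SOX7 had 3 to 12 counts in each library and is assigned by its accession to PINX1 in the gene table, so its identity is uncertain.

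Among the 7 forkhead members, FOXF1, a factor of visceral and lung mesenchyme, was the one called most often. FOXF1 had 16.5 scaled CPM in the growth papilla, 3.78 in the pulp, not listed in the epithelium, 6.87 in the resting papilla, 7.08 at day 2 and 6.35 at day 4 (counts in that order: 56, 22, none listed, 25, 26 and 25). It was highest in the growth papilla and unlisted in the epithelium. The growth papilla was 4.35-fold higher (2.62 to 7.49) than the pulp, at least 22.9-fold higher than the epithelium and 2.4-fold higher (1.47 to 4.01) than the resting papilla, whereas day 2 and day 4 stayed close to the resting papilla. The smooth muscle list was likewise highest in the growth papilla, as given above. Unlike FOXF1, it fell from 7032 scaled CPM in the resting papilla to 2037 at day 2 and 2259 at day 4. The part of smooth muscle in the FOXF1 result was not tested.

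FOXO1 had 25.6 scaled CPM in the growth papilla, 47 in the pulp, 14.4 in the epithelium, 26.4 in the resting papilla, 38.6 at day 2 and 29.4 at day 4 (counts in that order: 87, 273, 60, 96, 142 and 116). FOXO1, a target of insulin signalling (FOXO1A in the tables), was highest in the pulp, 3.26-fold higher (2.46 to 4.39) than in the epithelium, and was called in no other comparison. FOXM1 stood at 0.883 scaled CPM (growth papilla), 5.68 (pulp), 2.4 (epithelium), 0.55 (resting papilla), 2.72 (day 2) and 0.762 (day 4), from counts of 3, 33, 10, 2, 10 and 3. FOXM1, a driver of mitotic genes, was highest in the pulp, and the growth papilla was 6.43-fold lower (2.02 to 32.8) than the pulp. The pair FOXK1 and FOXK2, general regulators of metabolism, varied little. FOXK2 had 32.4 scaled CPM in the growth papilla, 38.4 in the pulp, 31.4 in the epithelium, 50.3 in the resting papilla, 41.1 at day 2 and 38.6 at day 4 (counts in that order: 110, 223, 131, 183, 151 and 152). FOXK1 stayed between 9.46 scaled CPM in the pulp and 13.1 at day 2, and neither was called in any of the 7 comparisons. FOXP1 stood at 2.94 scaled CPM (growth papilla), 2.75 (pulp), 1.68 (epithelium), 3.85 (resting papilla), 6.53 (day 2) and 2.03 (day 4), from counts of 10, 16, 7, 14, 24 and 8. FOXP1, a repressor, was highest at day 2, and day 4 was 3.22-fold lower (1.4 to 8.28) than day 2. FOXN2 had 6 to 18 counts in every library.

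**Figure D5:**
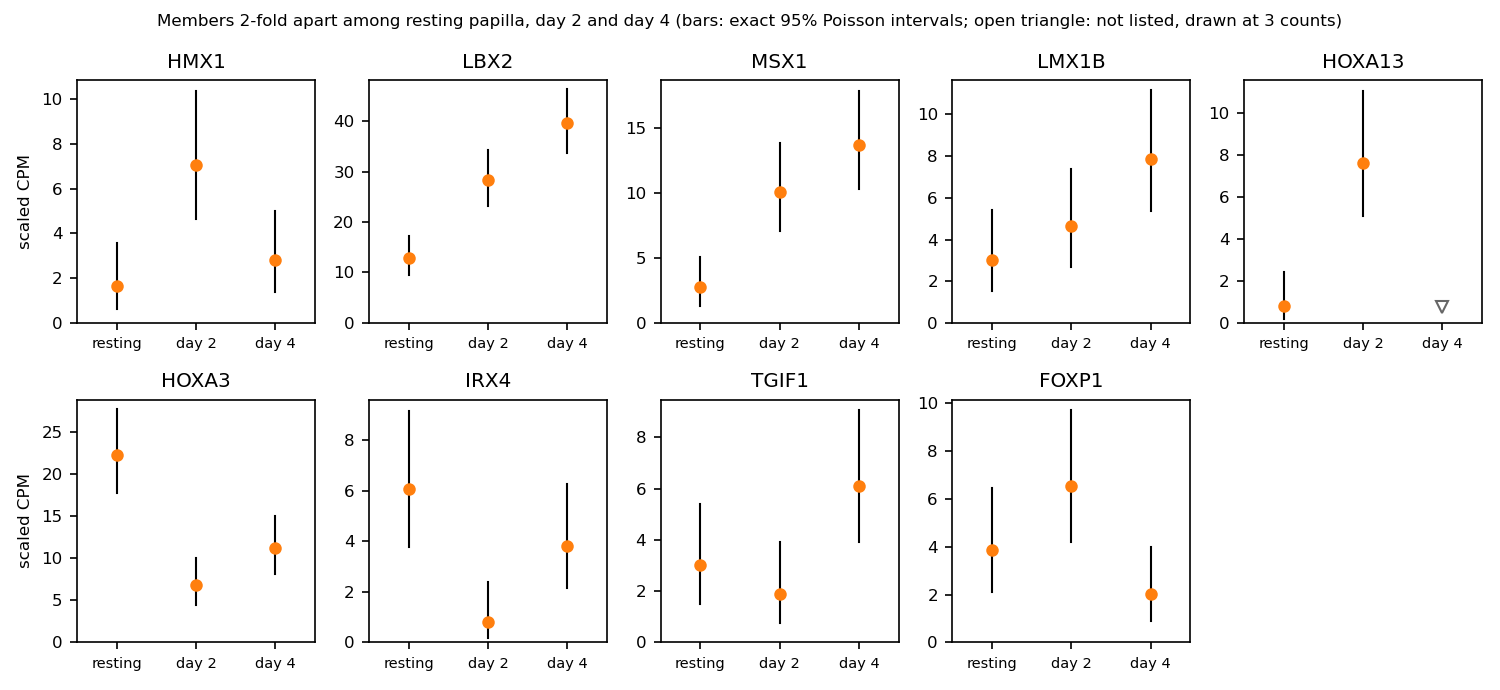
Scaled CPM of reported members at least 2-fold apart between any pair of the resting papilla, day 2 and day 4 libraries, with exact 95% Poisson intervals and an open triangle for the unlisted HOXA13 at day 4, drawn at 3 counts. LBX2 and MSX1 are higher on both days than in the resting papilla, whereas HMX1 and HOXA13 are highest at day 2.

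Regeneration was followed from the resting papilla to day 2 and day 4. Members higher at day 2 than in the resting papilla included LBX2, MSX1, HMX1 and HOXA13, and those lower were HOXA3 and IRX4. HOXA13 was 9.24-fold higher (2.86 to 47.5), from 28 counts at day 2 and 3 in the resting papilla. Day 4 was higher for LMX1B, LBX2 and MSX1. Between the days, HMX1, HOXA13 and FOXP1 were among the members lower at day 4, and TGIF1 was higher. PRRX1, SOX18, SOX9, FOXK2 and HOXD8 did not pass 2-fold in any of the 3 comparisons, with PRRX1 1.11-fold higher (1.01 to 1.21) at day 2 and 1.16-fold higher (1.06 to 1.26) at day 4 than in the resting papilla. The regenerating libraries are follicles, the resting one is a papilla and the body region of each is not given. Stage, tissue part and body region therefore cannot be told apart, for HOXA13 as for the other members. Beside these values, 3 of 4 counted leukocyte markers were higher on each day than in the resting papilla (all records 7.03% at day 2 and 8.23% at day 4). Smooth muscle markers were lower, 5 of 6 at day 2 and 4 of 6 at day 4 (all records 6.00% and 6.90%). The part of these markers was not tested.

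By the library of highest level, 8 of the 37 members with 20 or more counts in some library were at least 2-fold above every other library in the pulp (among them HMX1, HOXD12, LBX2, SOHO1, SOX11, SOX18 and TBX5), which is 21.6% against a background of 6.26%. The growth papilla had 2 (BARX2 and FOXF1, against a background of 1.89%) and the epithelium 1 (SOX14, against 504 of 7205 records, or 7%). No member stood out in the resting papilla, day 2 or day 4 library, where the background was 0.416%, 0.527% and 0.0833%. Several of these members reached 20 counts only in the library in which they stood out, so that library also brought them into the count. SOHO1 (216 counts), HOXD12 (45), SOX11 (39) and TBX5 (34) did so in the deeper pulp library, BARX2 (45) in the growth papilla and SOX14 (32) in the epithelium. The shares are a description of 1 library per tissue, and no test was made.

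Genes that partner or regulate these factors were counted in the same way. Of the corepressors and cofactors, 17 of 22 were matched. Among those counted, 1 of 15 was higher and 5 lower in the growth papilla than in the epithelium, and 0 of 14 were higher and 2 lower than in the pulp. In the pulp 3 of 16 were higher and 5 lower than in the epithelium, and none of the 12 or 13 counted was called in any of the 4 stage comparisons. Over all records the shares higher and lower were 25.0% and 22.7% in the growth papilla against the epithelium, 14.7% and 19.1% against the pulp, and 26.7% and 20.4% in the pulp against the epithelium. Between stages, 7.61% to 17.3% of all records were called in either direction. TLE1, a Groucho corepressor, had 35 counts in the growth papilla, 201 in the pulp and 32 in the epithelium, and the growth papilla was 3.36-fold lower (2.34 to 4.96) than the pulp. The list's median log2 ratios in the 3 comparisons of tissues were -0.36, 0.18 and -0.74, against -0.05, -0.09 and 0.08 over all records. The corepressor CTBP2 had 129, 202 and 11 counts, and the growth papilla was 14.4-fold higher (7.78 to 29.6) than the epithelium. Of the 24 symbols in the list of polycomb and trithorax genes, which hold HOX genes off or on, 12 were matched. MLL and KMT2A, an older and a newer name of the same gene, were both in the list, and only MLL was matched. In the growth papilla 1 of 7 counted was higher and 2 lower than in the epithelium, and 0 of 8 were higher and 1 lower than in the pulp; in the pulp 2 of 8 were higher and 2 lower than in the epithelium. These are to be read against the same all-record shares. The medians were -0.71, -0.22 and 0.05. EZH2, the methyltransferase of polycomb complex PRC2, had 33 counts in the growth papilla, 182 in the pulp, 123 in the epithelium and 75, 75 and 80 in the resting, day 2 and day 4 libraries. The growth papilla was the lowest of the 6 and 2.12-fold lower (1.39 to 3.3) than the resting papilla, the only call of this list between stages.

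Most counted genes of a list of skin signals, chosen as acting through or upstream of such factors, were called in the tissue comparisons. Their relation to the members was not tested. Of 20 genes, 16 were matched; 6 of 8 counted were higher and 2 lower in the growth papilla than in the epithelium, 2 of 11 were higher and 7 lower than in the pulp, and 10 of 12 were higher and 1 lower in the pulp than in the epithelium, with median log2 ratios of 3.91, -1.63 and 3.74, beside all-record shares of 25.0% and 22.7%, 14.7% and 19.1%, and 26.7% and 20.4%. WNT5A, a Wnt ligand of limb and feather buds, had 28 counts in the growth papilla and 101 in the resting papilla, and the growth papilla was 3.37-fold lower (2.2 to 5.32). The highest level of WNT5A was in the pulp, at 88.1 scaled CPM. Of 9 counted, 2 were higher and 3 lower in the growth than in the resting papilla (all records 9.35% and 7.97%). The 2 higher were BMP7, at 111.8 against 32.97 scaled CPM, and CRABP1, at 15.01 against 1.92. At day 2, 0 of 8 were higher and 3 lower than in the resting papilla (all records 7.03% and 6.00%), and at day 4, 1 of 9 was higher and 2 lower (all records 8.23% and 6.90%). DKK2, a secreted Wnt inhibitor, was 3.45-fold lower (2.87 to 4.17) at day 2 and 6.72-fold lower (5.31 to 8.59) at day 4.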

How the data were processed

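The 6 tables, 1 per library, were read. Per the file headers each gives a whole-number gene expression column, deposited by the authors as counts per RefSeq transcript record, and a column headed TPM, which the deposited values show to be RPM, since it is the count divided by 1 library total with no division by transcript length. That total was recovered from records with 500 or more counts, and the listed counts make up 40.0% to 44.5% of it. The build named is mm10, of the mouse, per the submitters' processing notes, while every record used is a chicken transcript. Aligner, counting and strand are steps not given in the sources used here.

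Records were named by their table symbol, or through their accession or gene identifier in the RefSeq gene table of the GRCg7b assembly, and 9 of the 45 members changed name by this. No coordinates were used beyond the order of neighbours. The recovered totals gave TMM factors (edgeR 4.0.16, R 4.3.3) of 0.997 in the growth papilla, 1.02 in the pulp, 0.688 in the epithelium, 1.09 in the resting papilla, 1.12 at day 2 and 1.17 at day 4. Calls used a pseudocount of 1, a minimum of 20 counts in either library and 2-fold. With 1 library in each group, no test was run. Of the members, 1 that entered every count is not reported here by name. The calls and intervals were tested on simulated Poisson counts, which hold counting error only. The altered records were drawn from those with 20 or more expected counts in both libraries, so members with few counts were not covered. The simulation therefore checks the computation and says nothing of spread between libraries of a group. Other computation used Python 3.11.15, numpy 2.4.6, scipy 1.17.1, pandas 2.3.3 and matplotlib 3.10.9.

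The members and all lists were chosen with earlier results of these data known. Named members were the 16 homeobox, 5 T-box, 6 SRY-box and 8 forkhead records of highest level (all, where fewer), and any other at least 4-fold above every other library or 4-fold apart at 50 or more counts; values of further members, and the partner genes named, were chosen after they were seen. Reads shared by near-identical records could be split by the counting, which is not described. Alternatives were 3 other scalings, pseudocounts of 0.1 and 5, no minimum, minimums of 50 and, added after seeing the data, 10 counts, a 4-fold rule and records summed per symbol.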

Additional observations from a re-analysis of the deposited data

How the results depend on the processing

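No paired analysis was possible because each group has 1 library. Of 760 alternative values of single members, 722 stayed within the 95% counting interval of the reported value, 38 fell outside it and 0 reversed. Of 158 recomputed counts of called members, 120 stayed within 1.5 times the reported count. Without composition scaling, all records had a median log2 ratio of 0.45 in the growth papilla and 0.61 in the pulp against the epithelium, where TMM gave -0.05 and 0.08, so ratios to the epithelium are relative to that shift; the members at least 2-fold above every other library in the growth papilla then numbered 1 in place of 2. Median-of-ratios and upper-quartile scaling, a pseudocount of 0.1 and records summed per symbol kept every count within 1.5 times.

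The other counts that moved depended on low counts and on the size rule. They are given without the number counted or the share over all records, both of which change with the setting. They therefore show only how the member counts moved, not whether all records moved alike. With no minimum count the growth papilla had 17 members higher than the epithelium, 9 higher than the pulp, and 7 higher and 5 lower than the resting papilla; day 4 had 5 higher and 2 lower than the resting papilla and 2 higher than day 2. With a minimum of 10 counts, chosen after seeing the data, the growth papilla had 8 higher than the pulp, and day 4 had 1 lower than the resting papilla and 2 higher than day 2. With a minimum of 50 counts, 4 were lower in the growth papilla than in the epithelium, 2 higher and 7 lower than in the pulp, 3 lower in the pulp than in the epithelium, 2 higher and 1 lower at day 2 than in the resting papilla, and 0 higher and 1 lower at day 4 than at day 2. With a pseudocount of 5, 4 were lower in the growth papilla than in the epithelium, 6 lower than in the pulp and 1 higher than in the resting papilla, 3 lower in the pulp than in the epithelium, 2 higher and 1 lower at day 2 than in the resting papilla, and 0 higher and 1 lower at day 4 than at day 2. Under a 4-fold rule, 4 were lower in the growth papilla than in the epithelium, 3 higher and 4 lower than in the pulp, and 1 higher and 1 lower than in the resting papilla; 2 were lower in the pulp than in the epithelium, 1 higher and 0 lower at day 2 and 0 higher at day 4 than in the resting papilla, and 0 higher and 1 lower at day 4 than at day 2. Depth limits the members near 20 counts most, since the intervals of their ratios are widest.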

Other observations

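Records of the same families whose descriptions lack the words of the rule were looked up after their values were seen. SOX17, a SOX factor of endoderm and vessels, had 23 counts in the growth papilla, 60 in the pulp, 3 in the epithelium, 17 in the resting papilla, 69 at day 2 and 35 at day 4, so that its highest scaled CPM was 18.8 at day 2, against 10.3 in the pulp. A second record of SOX7, described as similar to SRY-box 7 and assigned to SOX7 by its gene identifier, had 89, 156, 10, 61, 96 and 109 counts in the same order of libraries. Its scaled CPM lay between 16.8 and 27.7 in 5 libraries and at 2.4 in the epithelium. HOXB7 had 17, 67, none listed, 11, 19 and 19 counts, and shared with HOXB8 its highest level in the pulp and its absence from the epithelium table. HOXD3 had 6 to 25 counts in the 6 libraries, FOXJ3 (described as similar to FOXJ2) 19 to 37, and DLX6 3 counts in each growing tissue, 15 in the resting papilla, 9 at day 2 and 6 at day 4. Brachyury (TBXT) had 10 counts in the pulp and 2 in the epithelium and was unlisted elsewhere.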
